A study of Mus musculus with 11 samples.

Results

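Planar cell polarity is the property by which the cells of a sheet or a migrating group share a direction within the plane of the tissue. Its core machinery consists of the 4-pass membrane proteins VANGL1 and VANGL2 with their cytoplasmic partners PRICKLE1 and PRICKLE2 on one face of a cell, and of Frizzled receptors with Dishevelled on the opposite face, bridged by the atypical cadherins CELSR1, CELSR2 and CELSR3. ROR1 and ROR2 are receptor tyrosine kinase-like proteins that bind WNT5A, and the scaffold protein SCRIB is a partner of VANGL2. These proteins mediate WNT signaling that does not run through β-catenin, and in the mouse they are known for neural tube closure, limb and palate outgrowth and the orientation of hair cells of the inner ear.

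The 10 genes encoding these proteins, *Vangl1*, *Vangl2*, *Celsr1*, *Celsr2*, *Celsr3*, *Prickle1*, *Prickle2*, *Ror1*, *Ror2* and *Scrib*, were selected by name and matched through the gene annotation to the Ensembl identifiers of the deposited counts. All 10 were found among the 38561 genes counted, and all 10 were among the 17317 genes that passed the filter on low counts and were tested. RNA had been sequenced from facial processes (the nasal processes and the mandibular and maxillary parts of the branchial arch) dissected from mouse embryos of mixed strain at embryonic day 10.5. The 11 libraries were labelled wild type (wt, 2 libraries), *Rspo2* homozygous mutant (Rspo2KO, 3 libraries), *Wnt9b* homozygous mutant (Wnt9bKO, 3 libraries) and mutant for both genes (DKO, 3 libraries). RSPO2 is a secreted protein that strengthens WNT signaling at the receptor, and WNT9B is a WNT ligand of the facial ectoderm. The study compared these genotypes to find out how the loss of either gene or of both changes gene expression in the face, and the comparisons here ask the same of the polarity genes. The methods name a null *Rspo2* allele and *Wnt9b* mutant mice, with no Cre driver, and do not say whether embryos were pooled or sexes matched.

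The unit of level is CPM, the counts of a gene corrected for library size, for which total counts were scaled by TMM factors. Genotypes were compared with edgeR's two-sided quasi-likelihood test in a single model of all 11 libraries, and a gene was called when its p adjusted by the Benjamini-Hochberg method over the 17317 genes was below 0.05. The model shares its estimate of spread among genotypes because wt has 2 libraries. In bulk tissue, a change in the number of cells that express a gene and a change in its RNA per cell cannot be told apart.

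Total counts ranged from 11136166 to 18017344 per library. *Rspo2* was at 14.8 and 16.0 CPM in wt and at 4.73 to 6.58 CPM in the libraries labelled Rspo2KO. The library labelled Wnt9bKO 2 had 2.86 CPM of *Rspo2* and the library labelled DKO 3 had 15.5 CPM, so both went against their labels and results are also given without them. *Wnt9b* was not lower in the libraries labelled Wnt9bKO (18.6 ± 4.07 CPM, SD, n = 3) or DKO (19.4 ± 1.04 CPM, SD, n = 3) than in wt (12.1 ± 1.84 CPM, SD, n = 2). By edgeR it was called higher than in wt, by log2 fold changes of 0.61 in Wnt9bKO (adjusted p = 0.0187) and 0.68 in DKO (adjusted p = 0.0138). Gene counts do not show which exons the reads came from. The small nuclear RNAs summed to 351.6 to 419.2 CPM in the wt and Rspo2KO libraries and to 70.06 to 82.65 CPM in the Wnt9bKO and DKO libraries, so the *Wnt9b* label and a difference in RNA or library preparation cannot be told apart in comparisons across it. *Xist* was at 679 CPM or more in the wt and DKO libraries and at 1.94 CPM or less in the Rspo2KO and Wnt9bKO libraries, so sex and genotype cannot be told apart where single mutants are compared with wt or DKO. The library labelled Rspo2KO 1 stood apart over the genes tested, not only for the polarity genes. Its log2 levels correlated at 0.983 with wt 1 and 0.987 with wt 2, against 0.990 to 0.994 for Rspo2KO 2 and 3. It had the highest *Celsr1*, *Celsr2* and *Celsr3* levels of all 11 libraries, and values without it are given where they differ.

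In wt, the polarity genes spanned a wide range of levels when counts were expressed per kilobase of exon. *Scrib* was highest, at 15.3 ± 0.914 CPM per kb (SD, n = 2), above 81.8% of the genes tested. It was followed by *Ror2* at 8.15 ± 0.172, *Ror1* at 6.45 ± 0.0486 and *Vangl2* at 6.41 ± 0.062 CPM per kb, of which *Ror1* and *Vangl2* overlapped between libraries. *Prickle1* had 3.41 and 5.07 CPM per kb, and *Celsr2* (2.40 ± 0.00229) and *Celsr1* (1.79 ± 0.145) lay below it. *Vangl1* (1.14 ± 0.199) and *Prickle2* (1.12 ± 0.023) overlapped, and *Celsr3* was lowest at 0.80 CPM per kb, above 24.4% of the genes tested. Each gene pair of a family was thus unequal in wt: *Vangl2* exceeded *Vangl1*, and *Prickle1* exceeded *Prickle2*, in each wt library. The *Ror* pair was nearer in level, with *Ror2* at 8.27 and 8.02 and *Ror1* at 6.49 and 6.42 CPM per kb in wt 1 and wt 2.

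**Figure D1:**
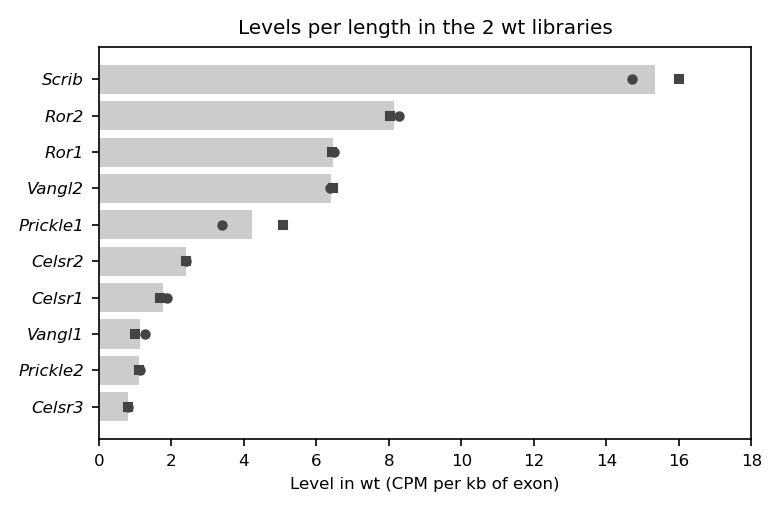
Levels of the 10 genes in wt, in CPM per kb of exon (x axis from 0), with bars for the mean of the 2 libraries, circles for wt 1 and squares for wt 2. *Scrib* lies at 15.3 and *Celsr3* at 0.80 CPM per kb, and the points of *Ror1* and *Vangl2* overlap.

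Promoter sequences from RefSeq (GRCm38.p6) are shown for *Celsr2* and *Celsr3*, which were higher in every mutant library than in wt, and for *Ror2*, which was lower, so that the start regions of genes that moved in opposite directions can be compared. Each sequence is the 250 bases before the transcription start, 5′ to 3′ on the strand of the gene, with CG dinucleotides in capitals. They lie at chr3:108415580-108415829 (minus strand), chr9:108825795-108826044 (plus strand) and chr13:53286125-53286374 (minus strand).
Celsr2: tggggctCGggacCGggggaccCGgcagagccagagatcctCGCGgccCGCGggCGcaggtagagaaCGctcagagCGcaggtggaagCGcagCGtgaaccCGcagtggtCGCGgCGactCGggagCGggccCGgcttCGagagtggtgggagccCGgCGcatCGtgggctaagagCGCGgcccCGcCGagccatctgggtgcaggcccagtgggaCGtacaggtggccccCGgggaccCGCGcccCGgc
Celsr3: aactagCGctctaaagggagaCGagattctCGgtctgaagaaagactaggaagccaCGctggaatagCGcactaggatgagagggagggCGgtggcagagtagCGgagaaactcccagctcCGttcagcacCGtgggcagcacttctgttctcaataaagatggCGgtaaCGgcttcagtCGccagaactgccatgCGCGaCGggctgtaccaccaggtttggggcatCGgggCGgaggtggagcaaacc
Ror2: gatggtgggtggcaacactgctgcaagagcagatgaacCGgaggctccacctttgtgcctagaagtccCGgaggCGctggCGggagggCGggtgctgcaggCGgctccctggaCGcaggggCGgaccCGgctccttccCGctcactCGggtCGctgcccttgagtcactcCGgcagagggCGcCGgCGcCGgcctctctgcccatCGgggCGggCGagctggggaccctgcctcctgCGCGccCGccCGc
These windows hold 32, 17 and 24 CG dinucleotides, against a median of 6 over all 32851 windows of the table, and their GC contents are 75.2%, 58.0% and 73.2%. The TCF/LEF motifs CTTTGAA and CTTTGTT, the sites through which β-catenin-dependent WNT signaling acts, were searched on both strands from 250 bases before to 50 bases after each start. Of the 10 genes, 7 had a window in the table, and 0 of their 11 windows held either motif, against 10.6% of all windows. The 250 bases before the listed start of *Vangl2* lie in exons of *Vangl2* itself, so that window is not upstream of the whole gene. The count says only that these letters are not in these windows, and the share over all windows was not matched for GC content.

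*Vangl2* had the largest log2 fold change of the group in Wnt9bKO and in DKO, where *Celsr3* was close to it. *Vangl2* (ENSMUSG00000026556, chromosome 1, 172000960 to 172028444 on the minus strand of GRCm38) encodes the core transmembrane protein whose loss opens the neural tube of the mouse. It was at 44.5 and 45.1 CPM in wt, at 72.6, 49.6 and 47.5 CPM in Rspo2KO 1, 2 and 3, at 95.6, 102 and 95.4 CPM in the libraries labelled Wnt9bKO, and at 94.6, 102 and 91.3 CPM in those labelled DKO. All 6 libraries labelled with the *Wnt9b* mutation lay above all 5 others, which held for 2 of the 10 genes (*Vangl1* and *Vangl2*) and for 10.1% of all genes tested, with 0 of 10 and 10.6% lower. The log2 fold change against wt was 1.13 in Wnt9bKO (SE 0.155, edgeR adjusted p = 0.000151), a 2.18-fold difference, and 1.10 in DKO (SE 0.155, adjusted p = 0.000203). *Vangl2* was called in both comparisons under all 21 alternative settings, with log2 fold changes of 0.98 to 1.18 and 0.98 to 1.15. Per length, its levels of 13.6 to 14.7 CPM per kb in Wnt9bKO placed it above *Ror2* (5.52 to 7.84) and *Ror1* (5.77 to 6.63) and just below *Scrib* (14.9 to 17.8), whereas in wt it had been at the level of *Ror1*.

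Its paralogue *Vangl1* (ENSMUSG00000027860, chromosome 3, 102153583 to 102204693) was also highest in the libraries with the *Wnt9b* label, with smaller differences. It was at 9.19 and 7.18 CPM in wt, at 8.08, 8.73 and 9.09 CPM in Rspo2KO, at 12.8, 11.9 and 11.02 CPM in Wnt9bKO and at 13.5, 13.7 and 12.1 CPM in DKO. The log2 fold change against wt was 0.55 in Wnt9bKO (SE 0.157, adjusted p = 0.0155) and 0.69 in DKO (SE 0.157, adjusted p = 0.00551). Without wt 2, which had the lower of the wt levels, these were 0.37 (adjusted p = 0.211) and 0.51 (adjusted p = 0.103) and no longer passed.

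The share of *Vangl2* in the summed *Vangl1* and *Vangl2* level per length ranged from 83.2% to 90.2% over the 11 libraries. It was 88.8% ± 0.833 (SD, n = 6) in the libraries with the *Wnt9b* label and 85.9% ± 2.70 (SD, n = 5) in the others, a difference of 2.91 percentage points (exact permutation test, two-sided, p = 0.0433, Benjamini-Hochberg adjusted p = 0.26 over 6 tests). The highest share, 90.2%, was that of Rspo2KO 1, so the libraries overlapped. Both paralogues therefore rose, without a difference between them that passed the adjusted threshold.

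The products of the 3 *Celsr* genes join the polarity complexes of neighbouring cells. All 3 genes were called as higher in Wnt9bKO and in DKO, and their levels were also above wt in every Rspo2KO library, although that comparison did not pass. *Celsr1* (ENSMUSG00000016028, chromosome 15, 85898929 to 86033777) was at 20.8 and 18.5 CPM in wt and at 40.6, 24.2 and 24.6 CPM in Rspo2KO. It was at 32.7, 39.5 and 36.6 CPM in Wnt9bKO and at 29.9, 29.0 and 38.5 CPM in DKO. The mutant genotypes overlapped each other and none overlapped wt. *Celsr1* rose by a log2 fold change of 0.89 in Wnt9bKO (SE 0.208, adjusted p = 0.00517) and of 0.73 in DKO (SE 0.208, adjusted p = 0.0186).

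*Celsr2* (ENSMUSG00000068740, chromosome 3, 108390851 to 108415552) had nearly equal levels in wt, 27.7 and 27.7 CPM. It was at 85.7, 44.9 and 48.5 CPM in Rspo2KO, at 41.1, 50.3 and 49.0 CPM in Wnt9bKO and at 42.8, 43.6 and 64.5 CPM in DKO. Rspo2KO 1 was the highest library and DKO 3 the next. It rose by a log2 fold change of 0.76 in Wnt9bKO (SE 0.248, adjusted p = 0.0301) and of 0.86 in DKO (SE 0.248, adjusted p = 0.0192).

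*Celsr3* (ENSMUSG00000023473, chromosome 9, 108826320 to 108852969), known for axon guidance, was at 9.64 and 9.66 CPM in wt. It was at 30.5, 17.7 and 16.4 CPM in Rspo2KO, at 20.3, 14.4 and 16.2 CPM in Wnt9bKO and at 22.5, 18.5 and 20.1 CPM in DKO, so that the lowest mutant library was above both wt libraries. *Celsr3* rose by 0.82 on the log2 scale in Wnt9bKO (SE 0.242, adjusted p = 0.0187) and by 1.08 in DKO (SE 0.242, adjusted p = 0.00487). The rise in DKO was called under all 21 alternative settings, at 0.74 to 1.14.

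The other calls on *Celsr* genes depended on the settings. The 3 genes have long exon sequences of 11.01 to 12.06 kb with GC contents of 57.8% to 58.8%, and an offset for GC content and gene length lowered their log2 fold changes in Wnt9bKO to 0.50 (adjusted p = 0.052) for *Celsr1*, 0.36 (adjusted p = 0.228) for *Celsr2* and 0.40 (adjusted p = 0.0795) for *Celsr3*. With the same offset the values in DKO were 0.42 (adjusted p = 0.113), 0.54 (adjusted p = 0.0841) and 0.74 (adjusted p = 0.00488). Without DKO 3, the rises of *Celsr1* (0.58, adjusted p = 0.0679) and *Celsr2* (0.64, adjusted p = 0.0749) in DKO did not pass. Without either wt library, the calls on *Celsr2* in both comparisons, on *Celsr3* in Wnt9bKO (0.81, adjusted p = 0.104, without wt 1 or wt 2) and on *Celsr1* in DKO (adjusted p = 0.0853 without wt 1 and 0.142 without wt 2) were lost. *Celsr1* in Wnt9bKO did not pass without wt 2 (0.80, adjusted p = 0.0625). *Celsr2* in Wnt9bKO also did not pass without Wnt9bKO 2 (0.73, adjusted p = 0.0635) or Wnt9bKO 3 (0.75, adjusted p = 0.0662), nor *Celsr3* without Wnt9bKO 1 (0.67, adjusted p = 0.0521).

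**Figure D2:**
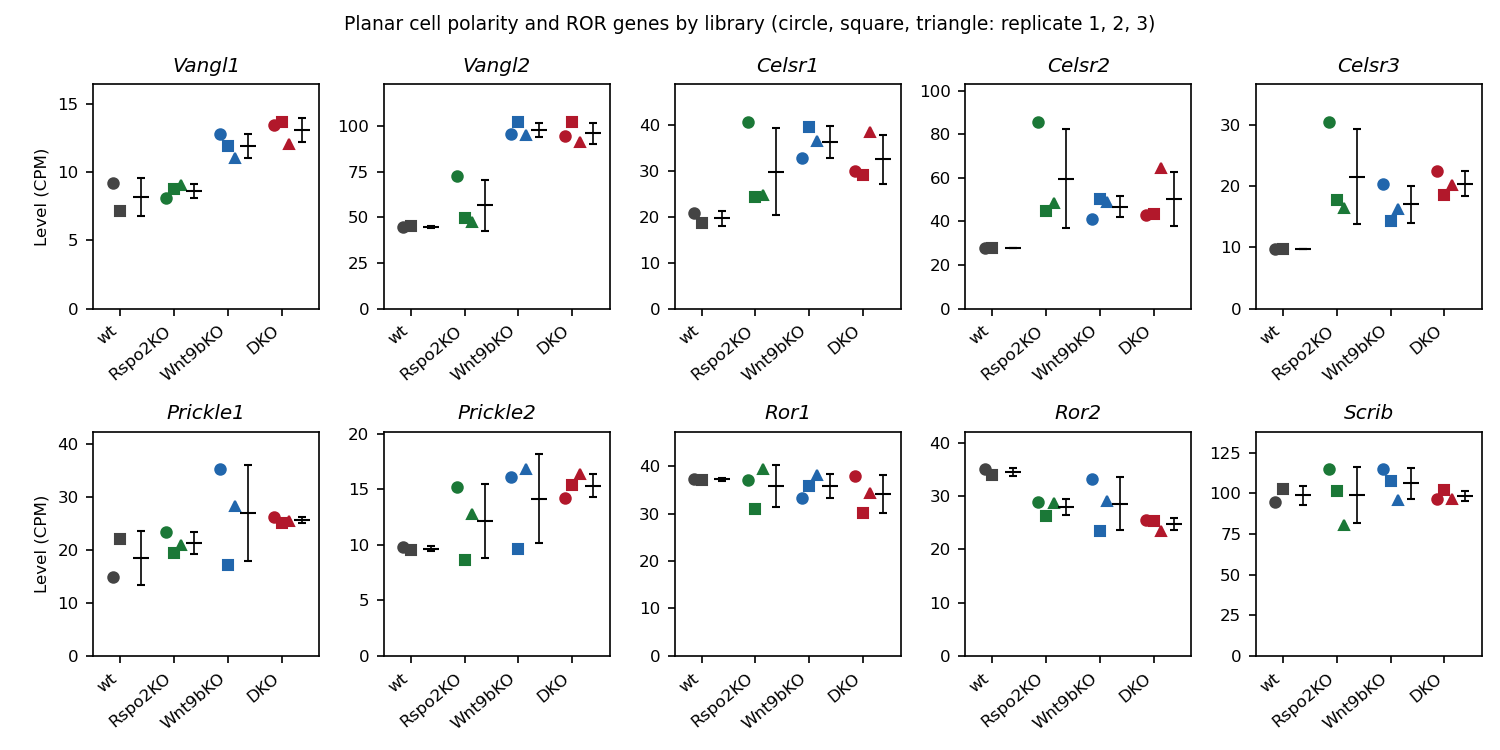
Levels in CPM (y axes from 0, a scale per gene) of the 10 genes in each library, with circles, squares and triangles for replicates 1, 2 and 3 and bars for the mean and SD of each genotype. *Vangl2* lies between 91.3 and 102 CPM in all 6 Wnt9bKO and DKO libraries, and Rspo2KO 1 is the highest library for *Celsr1*, *Celsr2* and *Celsr3*.

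The *Prickle* genes encode the cytoplasmic partners of VANGL, and neither was called by edgeR as reported in any comparison. *Prickle1* (ENSMUSG00000036158, chromosome 15, 93499114 to 93595891) was at 14.8 and 22.03 CPM in wt, at 23.4, 19.4 and 20.8 CPM in Rspo2KO, at 35.2, 17.2 and 28.2 CPM in Wnt9bKO and at 26.1, 25.0 and 25.5 CPM in DKO. Wnt9bKO overlapped wt, with the library labelled Wnt9bKO 2 below wt 2, whereas the DKO libraries lay above wt. The log2 fold changes were 0.54 in Wnt9bKO (SE 0.234, adjusted p = 0.0932) and 0.46 in DKO (SE 0.234, adjusted p = 0.162). *Prickle2* (ENSMUSG00000030020, chromosome 6, 92370908 to 92706155) was at 9.82 and 9.53 CPM in wt, at 15.2, 8.61 and 12.8 CPM in Rspo2KO, at 16.1, 9.59 and 16.8 CPM in Wnt9bKO and at 14.3, 15.4 and 16.4 CPM in DKO. Its log2 fold changes were 0.55 in Wnt9bKO (SE 0.246, adjusted p = 0.0988) and 0.67 in DKO (SE 0.247, adjusted p = 0.0574). Without the libraries labelled Wnt9bKO 2 and DKO 3, both genes passed in Wnt9bKO, *Prickle1* at 0.77 (adjusted p = 0.00749) and *Prickle2* at 0.77 (adjusted p = 0.0178). In DKO, *Prickle2* was called in 8 of 21 alternative settings, among them DESeq2 (0.66, adjusted p = 0.0381), and *Prickle1* in 3 of 21, among them no low-count filter (0.47, adjusted p = 0.0303). The share of *Prickle1* in the pair ranged from 74.99% to 82.11% and differed by -0.363 percentage points with the *Wnt9b* label (exact permutation test, p = 0.831, adjusted p = 0.935).

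*Ror2* was the single gene of the group that fell. *Ror2* (ENSMUSG00000021464, chromosome 13, 53109312 to 53286124), the WNT5A receptor needed for limb and facial outgrowth, was at 35.1 and 34.0 CPM in wt and at 29.0, 26.3 and 28.7 CPM in Rspo2KO. It was at 33.2, 23.4 and 29.1 CPM in Wnt9bKO and at 25.5, 25.3 and 23.4 CPM in DKO. All 9 mutant libraries were below wt, and the 3 DKO libraries were also below all Rspo2KO libraries. *Ror2* fell by 0.48 on the log2 scale in DKO (SE 0.135, adjusted p = 0.0163), to 0.716 of its wt level. The differences in Wnt9bKO (-0.27, SE 0.135, adjusted p = 0.137) and Rspo2KO (-0.30, SE 0.135, adjusted p = 0.388) did not pass. The Wnt9bKO value was -0.12 (edgeR adjusted p = 0.486) without Wnt9bKO 2 and -0.15 (edgeR adjusted p = 0.394) without Wnt9bKO 2 and DKO 3. Without Wnt9bKO 1 it was -0.39 (edgeR adjusted p = 0.0294). With the GC and length offset the DKO value was -0.46 (adjusted p = 0.0096), but the fall in DKO did not pass without wt 1 (-0.47, adjusted p = 0.0903) or without wt 2 (-0.51, adjusted p = 0.0712).

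*Ror1* (ENSMUSG00000035305, chromosome 4, 100095791 to 100444765) showed no difference that passed the threshold, at 37.4 and 37.0 CPM in wt, 37.2, 30.9 and 39.4 CPM in Rspo2KO, 33.2, 35.9 and 38.2 CPM in Wnt9bKO and 38.02, 30.1 and 34.3 CPM in DKO. Its log2 fold change was -0.06 in Wnt9bKO and -0.12 in DKO, the latter with a 95% interval of -0.403 to 0.157. The share of *Ror2* in the pair ranged from 47.0% to 57.6% per length and differed by -2.77 percentage points between libraries with and without the *Rspo2* label (50.6% ± 2.54, SD, n = 6, and 53.4% ± 4.38, SD, n = 5), which did not pass (exact permutation test, two-sided, p = 0.216, adjusted p = 0.502).

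*Scrib* (ENSMUSG00000022568, chromosome 15, 76047158 to 76069784), the scaffold of the basolateral membrane, passed the threshold in no comparison. It was at 94.7 and 103 CPM in wt, at 115, 101 and 80.7 CPM in Rspo2KO, at 115, 107 and 96.2 CPM in Wnt9bKO and at 96.6, 102 and 96.7 CPM in DKO, with all genotypes overlapping. The 95% intervals of its log2 fold change against wt were -0.180 to 0.386 in Wnt9bKO, -0.285 to 0.285 in Rspo2KO and -0.288 to 0.277 in DKO. *Celsr1*, *Prickle1* and *Scrib* lie on the same chromosome as *Rspo2*, 42.7, 50.3 and 32.9 Mb away from it.

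Counted over the group, 5 of the 10 genes (*Vangl1*, *Vangl2*, *Celsr1*, *Celsr2* and *Celsr3*) were called in Wnt9bKO against wt, all of them higher. Of all genes tested, 32.8% were called in this comparison, and 16.8% were called and higher. The count was 1 without wt 2, 3 without wt 1 and 2 with the GC and length offset. The median log2 fold change was 0.552 over the 10 genes and 0.013 over all genes tested. In DKO against wt, 6 of the 10 were called, of which *Vangl1*, *Vangl2*, *Celsr1*, *Celsr2* and *Celsr3* were higher and *Ror2* lower, against 27.5% of all genes tested (14.3% higher and 13.1% lower). The count was 2 without wt 2 and 3 without wt 1. For the counts without a wt library or with the offset, the shares of all genes called are not given here. A loss of calls in the group and a loss over all genes cannot therefore be told apart. The median was 0.677 over the 10 genes and 0.015 over all. These comparisons share the wt libraries and are not independent of each other. With DESeq2, 5 genes were called in Wnt9bKO, against 30.2% of all genes with an adjusted p, and 7 in DKO, the seventh being *Prickle2*, against 27.2%. Without reference to any model, 4 of the 10 genes (*Vangl2*, *Celsr1*, *Celsr2* and *Celsr3*) were higher in all 9 mutant libraries than in both wt libraries, as were 9.76% of all genes tested, and 1 (*Ror2*) was lower in all 9, as were 8.47%.

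**Figure D3:**
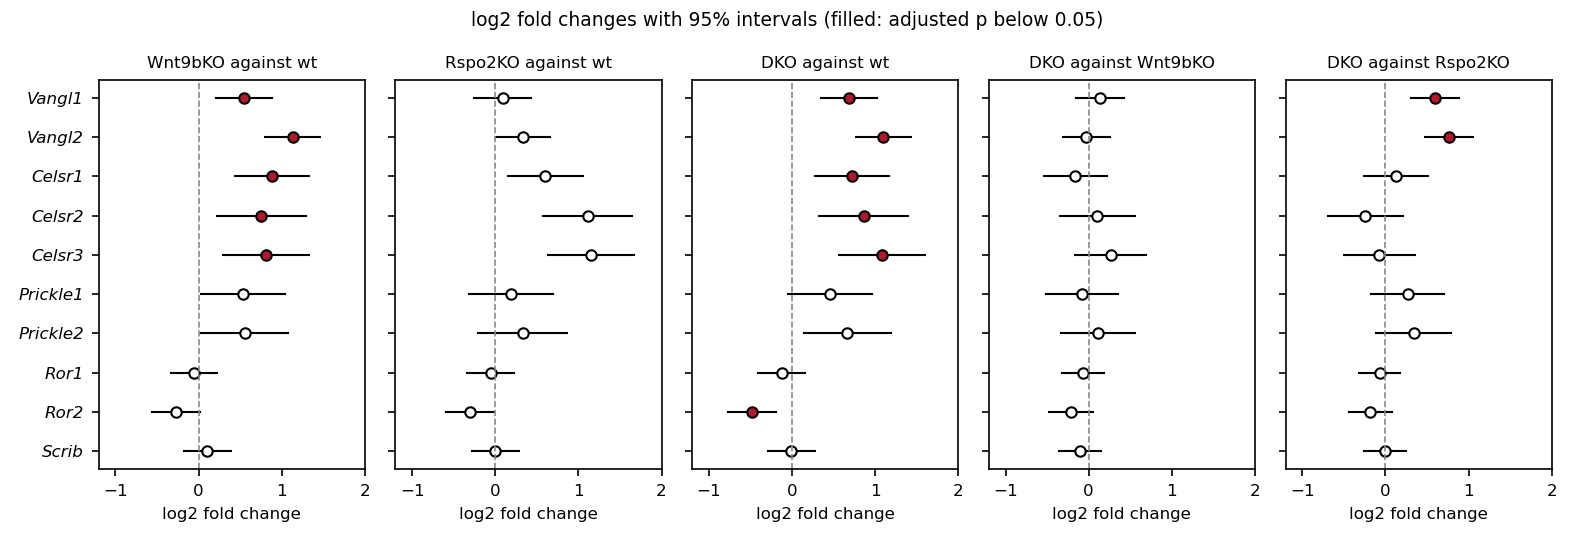
The log2 fold change of each gene (points) with its 95% interval (lines) in the 5 comparisons of genotypes, filled where the edgeR adjusted p is below 0.05. In DKO against Wnt9bKO every interval includes 0, and in DKO against Rspo2KO the filled points are *Vangl1* at 0.60 and *Vangl2* at 0.77.

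In Rspo2KO against wt, 0 of the 10 genes were called by edgeR, where 0.0346% of all genes tested were. At an unadjusted p below 0.05 there were 5 of 10 (*Vangl2*, *Celsr1*, *Celsr2*, *Celsr3* and *Ror2*), against 11.9% of all genes tested. The *Celsr* genes had the largest differences, with log2 fold changes of 0.60 for *Celsr1* (SE 0.209, adjusted p = 0.288), 1.11 for *Celsr2* (SE 0.250, adjusted p = 0.203) and 1.15 for *Celsr3* (SE 0.243, adjusted p = 0.182). With DESeq2, *Celsr2* (1.10, adjusted p = 0.00359) and *Celsr3* (1.14, adjusted p = 0.0018) were called, 2 of 10 against 1.54% of all genes with an adjusted p. Without Rspo2KO 1, the edgeR values were 0.32 (adjusted p = 0.709) for *Celsr1*, 0.75 (adjusted p = 0.475) for *Celsr2* and 0.82 (adjusted p = 0.374) for *Celsr3*, and *Vangl2* was at 0.11 (adjusted p = 0.865). The other log2 fold changes as reported were 0.09 for *Vangl1*, 0.33 for *Vangl2*, 0.19 for *Prickle1*, 0.33 for *Prickle2*, -0.05 for *Ror1*, -0.30 for *Ror2* and 0.00 for *Scrib*. This comparison lies within the libraries of high small nuclear RNA level, but *Xist* was high in wt and low in Rspo2KO.

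In DKO against Wnt9bKO, which lies within the libraries of low small nuclear RNA level, 0 of the 10 genes were called by edgeR and 0 by DESeq2, and 0 had an unadjusted p below 0.05. Of all genes tested, 0.121% were called by edgeR, 0.481% by DESeq2 and 5.63% at the unadjusted threshold. The 95% interval of the difference was -0.307 to 0.254 for *Vangl2* and -0.471 to 0.0481 for *Ror2* on the log2 scale, and the widest interval was that of *Celsr2*, -0.347 to 0.557. The log2 fold changes of the others were 0.14 for *Vangl1*, -0.16 for *Celsr1*, 0.26 for *Celsr3*, -0.08 for *Prickle1*, 0.11 for *Prickle2*, -0.07 for *Ror1* and -0.11 for *Scrib*. The level of *Xist* was high in DKO and low in Wnt9bKO. Wnt9bKO 2 and DKO 3, whose *Rspo2* levels went against their labels, lie in the groups compared here. Under the 21 alternative settings, among them leaving out both, none of the 10 genes was called. The values ranged from -0.31 to 0.17 for *Prickle1*, 0.16 to 0.41 for *Celsr3* and -0.34 to -0.09 for *Ror2*.

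In DKO against Rspo2KO, *Vangl1* (0.60, SE 0.137, adjusted p = 0.00759) and *Vangl2* (0.77, SE 0.133, adjusted p = 0.00133) were higher, 2 of 10 genes against 18.2% of all genes tested, of which 9.17% were higher. All DKO libraries lay above all Rspo2KO libraries for *Vangl1*, *Vangl2* and *Prickle1*, 3 of 10 genes against 18.2% of all genes tested, and below them for *Ror2*, 1 of 10 against 18.3%. Both calls held under the 21 alternative settings. The *Celsr* genes did not differ beyond their spread (*Celsr1* 0.13, *Celsr2* -0.24, *Celsr3* -0.07), with DKO and Rspo2KO libraries overlapping. Nor were calls made on *Prickle1* (0.27), *Prickle2* (0.34), *Ror1* (-0.07), *Ror2* (-0.18) and *Scrib* (-0.01). Without Rspo2KO 1, *Celsr1* was called at 0.41 (adjusted p = 0.0471), while *Celsr2* (0.11, adjusted p = 0.678) and *Celsr3* (0.26, adjusted p = 0.242) were not.

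The interaction asks whether the change in DKO differs from the sum of the changes in the single mutants. In this contrast the genotypes with high *Xist* (wt and DKO) are set against those with low *Xist* (Rspo2KO and Wnt9bKO), so the interaction and the sex of the embryos cannot be told apart. None of the 10 genes was called by edgeR, where 0.0635% of all genes tested were, and 0 by DESeq2, where 0.268% were. At an unadjusted p below 0.05 there were 3 of 10, all *Celsr* genes, against 9.44% of all genes. For *Celsr2*, the changes of 0.76 and 1.11 in the single mutants stood beside 0.86 in DKO, an interaction with a 95% interval of -1.69 to -0.306 (SE 0.325, edgeR adjusted p = 0.427). The interactions of *Celsr1* (-0.76, SE 0.273, edgeR adjusted p = 0.435) and *Celsr3* (-0.89, SE 0.314, edgeR adjusted p = 0.435) had the same sign, so the DKO value was below the sum. Without Rspo2KO 1 the interactions were -0.47 for *Celsr1* (edgeR adjusted p = 0.799), -0.65 for *Celsr2* (edgeR adjusted p = 0.767) and -0.56 for *Celsr3* (edgeR adjusted p = 0.768). For *Vangl2* the interaction was -0.36, with a 95% interval of -0.789 to 0.0702. Those of the other genes were 0.05 for *Vangl1*, -0.27 for *Prickle1*, -0.21 for *Prickle2*, -0.01 for *Ror1*, 0.09 for *Ror2* and -0.11 for *Scrib*.

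**Figure D4:**
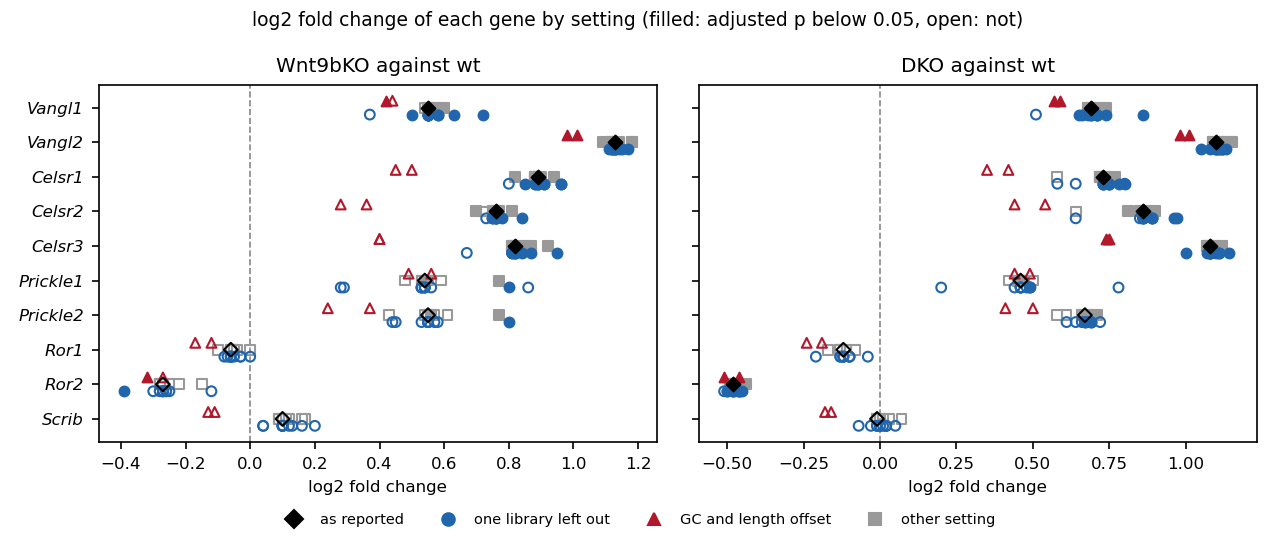
The log2 fold change of each gene against wt under the reported setting (diamonds), with a library left out (circles), with an offset for GC content and gene length (triangles) and under other settings (squares), filled where the adjusted p is below 0.05. *Vangl2* stays filled between 0.98 and 1.18 in Wnt9bKO, and the triangles of *Celsr1*, *Celsr2* and *Celsr3* lie to the left of their diamonds.

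A list of 43 other genes of the polarity and β-catenin-independent WNT pathway moved in both directions, and all 43 were tested. In Wnt9bKO against wt, 12 of the 43 were called (7 higher and 5 lower), where 32.8% of all genes tested were called. The median log2 fold change was -0.024 over the list. In DKO against wt there were 10 (6 higher and 4 lower, median -0.074), where 27.5% of all genes tested were called. In DKO against Rspo2KO there were 8 (5 higher and 3 lower), against 18.2% of all genes tested. In Rspo2KO against wt, DKO against Wnt9bKO and the interaction there were 0 by edgeR, against 0.0346%, 0.121% and 0.0635% of all genes tested. In these 3 comparisons 11, 0 and 6 genes had an unadjusted p below 0.05, against 11.9%, 5.63% and 9.44% of all genes tested. DESeq2 called 4, 0 and 1, against 1.54%, 0.481% and 0.268% of all genes with an adjusted p.

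None of the 4 WNT ligands of the list (*Wnt5a*, *Wnt5b*, *Wnt11* and *Wnt4*) was called in any of the 6 comparisons. *Wnt5a*, the ligand of the ROR receptors, was singled out for that role after its values were seen and had a mean level of 73.5 CPM in wt and 55.8 CPM in DKO, a log2 fold change of -0.40 (SE 0.206, adjusted p = 0.169). Of the 6 receptors, *Fzd2* was called in Wnt9bKO against wt and in DKO against Rspo2KO, where its level was 178 against 117 CPM (log2 fold change 0.61, adjusted p = 0.00142). Of the 9 cytoplasmic proteins, 2 were called in Wnt9bKO against wt, 1 higher and 1 lower. The higher was *Smurf1*, a ubiquitin ligase that targets PRICKLE. It rose by a log2 fold change of 0.71 in Wnt9bKO (SE 0.130, adjusted p = 0.00107) and of 0.52 in DKO against Rspo2KO (adjusted p = 0.00556). Among the 15 effectors, *Rock1*, a kinase that acts on myosin downstream of RHOA, rose in DKO by 0.42 against wt (SE 0.0898, adjusted p = 0.00371) and by 0.38 against Rspo2KO (adjusted p = 0.00414).

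The genes of the FAT and Dachsous polarity system and the partners of VANGL and SCRIB held the largest changes of the list. *Fat4*, a giant cadherin, was at a mean of 224 CPM in wt and rose to 419 CPM in Wnt9bKO (log2 fold change 0.90, SE 0.138, adjusted p = 0.000309) and 407 CPM in DKO (0.86, SE 0.138, adjusted p = 0.000523). *Sec24b*, a coat protein that sorts VANGL2 for export from the endoplasmic reticulum, rose from 34.2 to 71.4 CPM in Wnt9bKO (1.06, SE 0.189, adjusted p = 0.000894) and 65.0 CPM in DKO (0.92, SE 0.189, adjusted p = 0.00279). *Gipc1*, an adaptor in VANGL2 trafficking, fell from 98.8 to 54.6 CPM in Wnt9bKO (-0.86, SE 0.118, adjusted p = 0.000157) and 58.3 CPM in DKO (-0.76, SE 0.119, adjusted p = 0.000435). *Llgl1*, which acts with SCRIB in apical-basal polarity, fell from 196 to 105 CPM in Wnt9bKO (-0.91, SE 0.0952, adjusted p = 1.84e-05) and 101 CPM in DKO (-0.95, SE 0.0953, adjusted p = 1.33e-05). *Llgl1* and *Gipc1* were also lower in DKO than in Rspo2KO, by log2 fold changes of -0.82 (adjusted p = 2.27e-05) and -0.55 (adjusted p = 0.00278). Each of these comparisons crosses the *Wnt9b* label. In Rspo2KO against wt, which does not cross it, *Fat4* (354 against 224 CPM, log2 fold change 0.66, edgeR adjusted p = 0.182) and *Sec24b* (59.2 against 34.2 CPM, 0.78, edgeR adjusted p = 0.216) were above wt in all 3 libraries without passing the adjusted threshold, while *Llgl1* (-0.14, edgeR adjusted p = 0.602) and *Gipc1* (-0.21, edgeR adjusted p = 0.516) overlapped wt.

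**Figure D5:**
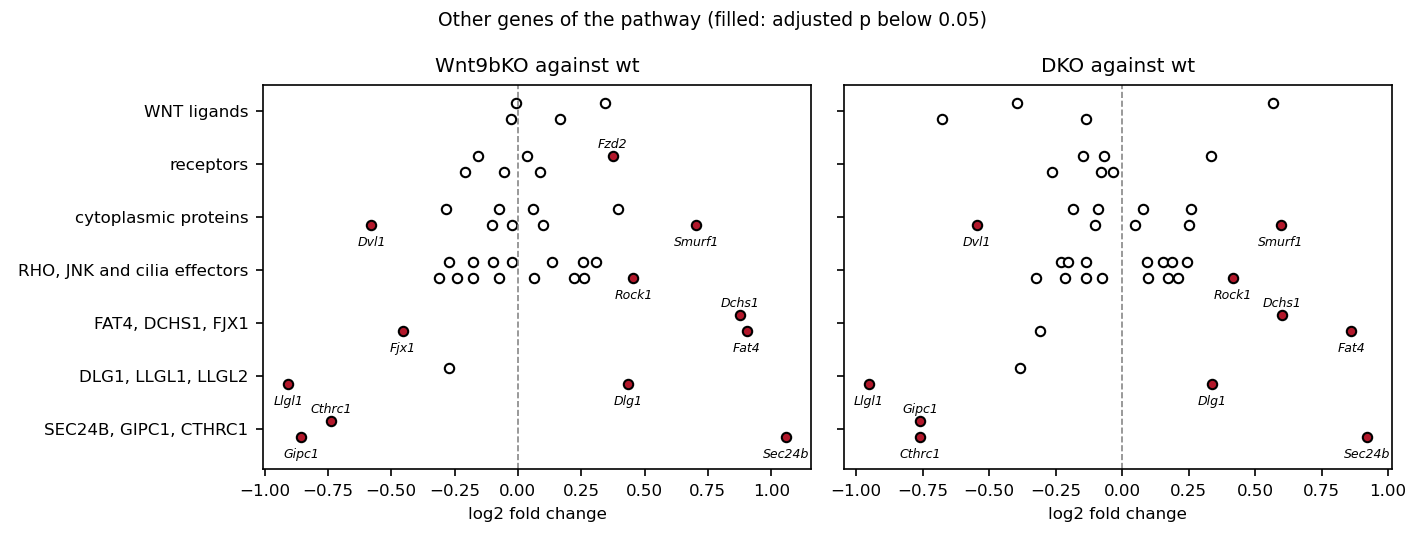
The log2 fold change against wt (x axis) of the 43 other pathway genes by role (rows) in Wnt9bKO and DKO, with filled, named points where the edgeR adjusted p is below 0.05. No WNT ligand is filled, and *Sec24b* and *Fat4* lie at the right and *Llgl1* and *Gipc1* at the left in both panels.

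For each polarity gene called against wt, the genes with the most similar levels over the 11 libraries were identified among 13321 protein-coding genes of at least 1 CPM on average, as those with the smallest root mean square difference of mean-centred log2 levels. The closest were *Rbm14* (0.0469) and *Arnt2* (0.0704) for *Vangl2*, *Cdt1* (0.0805) and *R3hdm2* (0.0901) for *Celsr1*, and *Igsf3* (0.0782) and *Tbc1d16* (0.0837) for *Ror2*. For *Vangl1* they were *Trip4* and *Rnf20* (0.103 each), for *Celsr2* they were *Cmip* (0.162) and *Zfp609* (0.165), and for *Celsr3* they were *Pclo* (0.146) and *Stk32b* (0.151). None of the 10 polarity genes was among the 2 closest genes of these 6. The points share the libraries, so this likeness is a description.

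Markers of the cell types of the face were examined beside these values. Of all genes tested, 32.8% were called in Wnt9bKO against wt (16.8% called and higher) and 27.5% in DKO against wt (14.3% called and higher). In Rspo2KO against wt it was 0.0346%. The 5 mesenchyme markers (*Prrx1*, *Twist1*, *Pdgfra*, *Alx1* and *Msx1*) summed to 834.6 to 883.1 CPM in wt, 613.9 to 684.2 in Rspo2KO, 522.4 to 1064 in Wnt9bKO and 656.2 to 791.8 in DKO, and 0 of 5 were called against wt in any mutant. The 8 markers of surface epithelium, where CELSR1 and VANGL2 are known to act, summed to 250.5 to 304.5 CPM over all 11 libraries, with 1 of 8 called in Wnt9bKO and 1 of 8 in DKO. The 8 neural markers summed to 573.1 to 627.6 CPM in wt, 707.0 to 806.3 in Rspo2KO, 446.0 to 559.8 in Wnt9bKO and 688.0 to 764.6 in DKO. Against wt, 1 of 8 was called in Wnt9bKO, where it was lower, and 4 of 8 in DKO, all of them higher. The part of the neural markers in the *Celsr* values was not tested. The 4 endothelial markers summed to 117.1 to 125.8 CPM in wt and 138.3 to 164.1 in the mutants, but did not move together. In Wnt9bKO and in DKO, 3 of 4 were called against wt, of which 2 were higher. *Tek* was at 28.4 and 24.4 CPM in wt and at 14.4 to 21.5 CPM in Wnt9bKO and DKO. The 4 glial markers summed to 53.3 to 71.52 CPM over all libraries. The 4 erythroid markers were lower with the *Wnt9b* label, at 794.6 to 1248 CPM against 1644 to 2427 CPM without it, as the small nuclear RNAs were, and their part in the *Vangl* values was not tested. The 5 heart and muscle markers, of which 3 passed the filter, summed to 39.8 CPM in wt 1 and to 2.74 to 10.6 CPM in the other libraries, and *Tnnt2* alone of all markers was at 0, in the library labelled Wnt9bKO 2.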

How the data were processed

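RNA of 4 genotypes was measured by sequencing of E10.5 facial processes. By the methods of the study, the authors used Cutadapt for trimming of the single-end reads, STAR for alignment to GRCm38 and HTSeq-Count for counts per gene. The authors deposited whole-number counts for 38561 genes in each of 11 libraries, without normalization; strand setting and versions are not given in the sources used here. Genotypes and replicate numbers came from the labels. Embryos behind replicates are not described, so p-values measure the spread between these libraries, which may be technical.

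Names, positions and exon lengths came from GENCODE M21, which matched 36723 genes. Counts were analysed with R 4.3.3, edgeR 4.0.16 and limma 3.58.1 (filterByExpr on genotype, TMM factors of 0.9153 to 1.096, quasi-likelihood fit with 4 genotype means). Python 3.11.15 with scipy 1.17.1 was used for exact permutation tests of paralogue shares. DESeq2 1.42.0, which the study names, was an alternative. The other alternatives were RLE factors, no filter, at least 10 counts in every library, protein-coding genes only, only the groups compared, a block for the replicate number, an offset fitted by loess (span 0.3) to GC content and length, leaving out each library, and leaving out Wnt9bKO 2 and DKO 3 together.

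The 10 genes, the list of 43 pathway genes and the markers were chosen with earlier results of these data known. All 10 genes are named in every comparison, and of the pathway list the 5 genes with the smallest p among those called. Promoter sequences came from RefSeq; *Vangl1*, *Celsr1* and *Scrib* were not matched to a window.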

Additional observations from a re-analysis of the deposited data

How the results depend on the processing

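The limits of these results include the 2 wt libraries and the *Wnt9b* label, with which small nuclear RNA and erythroid levels also moved. They also include sex, as *Xist* was high in wt and DKO and low in the single mutants. The libraries Wnt9bKO 2 and DKO 3, whose *Rspo2* levels went against their labels, are a further limit. Of the values of the 10 genes recomputed under the alternatives, 1122 of 1250 kept their direction and their side of the threshold, 33 lost and 28 gained a call, and 67 changed sign, none of them while called. In Wnt9bKO against wt, where 5 of the 10 genes were called, 2 were called with the GC and length offset (*Vangl1* and *Vangl2*) and 2 with the offset and the block, of which *Vangl2* was 1 of the 5 and *Ror2*, lower at -0.32 (adjusted p = 0.0372), was not. Of the cause, only the construction is known: the offset removes trends with GC content and length between libraries. In Rspo2KO against wt, 2 genes of the group and 4 of the pathway list were called with DESeq2, against 1.54% of all genes with an adjusted p. Without the low-count filter there were 3 and 5. In the interaction, 3 genes of the group and 4 of the list were called without the filter. With DESeq2 it was 1 of the list, against 0.268% of all genes with an adjusted p. For the offset, the block and the missing filter the shares of all genes called are not given, so these counts alone are no result about the group. The cause was not tested.

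Leaving out a library, the group's calls ranged from 1 (without wt 2) to 6 in Wnt9bKO against wt, with 3 without wt 1, and from 2 (without wt 2) to 8 in DKO against wt, with 3 without wt 1. The pathway list's calls ranged from 5 (without wt 2) to 13 in DKO against wt and from 5 (without Rspo2KO 3) to 10 in DKO against Rspo2KO. The shares of all genes called are not given for these settings. A loss of calls in these genes and a loss over all genes cannot therefore be told apart. Without Wnt9bKO 2 and DKO 3, the group had 7 calls in Wnt9bKO and 4 in DKO, also without the shares of all genes beside them. The *Vangl2* share then differed by 2.72 percentage points with the *Wnt9b* label (exact permutation test, p = 0.111), and the differences of the *Vangl2* share with the *Rspo2* label (0.172) and of the *Prickle1* share with the *Wnt9b* label (0.106) changed sign, neither having passed.

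The same replicate numbers occur in each genotype, and the labels do not say that they mark a litter or day. Correlations of same-numbered libraries ranged from -0.083 to 0.207 over 15 pairs, with 1 over 0.1. Still, 7 of 11 libraries correlated best with their own number in every other genotype, among them every Rspo2KO and every DKO library. Whether the numbers mark a shared litter or batch was not tested. As the labels state no pairs, the main model held no block, and the block was run as an alternative. With the replicate block, 4 of the 10 genes were called in Wnt9bKO (*Celsr2* at 0.72, adjusted p = 0.05, was lost) and 6 in DKO.

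Sign changes concerned uncalled log2 fold changes near 0. For *Scrib* they were -0.13 (GC and length offset) and -0.11 (offset with block) in Wnt9bKO. In Rspo2KO against wt they were -0.01 (DESeq2, and without Wnt9bKO 2 and DKO 3), 0.00 (RLE), -0.06 (offset) and -0.04 (offset with block). In DKO against wt they were 0.00 (no filter, and without both libraries), 0.01 (at least 10 counts), 0.07 (block) and 0.03 (protein-coding). In DKO against Rspo2KO they were 0.01 (block, protein-coding, without both libraries, only the groups compared), and in the interaction 0.01 (offset). *Vangl2* in DKO against Wnt9bKO was 0.00 (offset, with and without block) and 0.04 without both libraries, where *Celsr2* was -0.06 and *Prickle2* -0.15. *Celsr1* in DKO against Rspo2KO was -0.01 (offset with block, and without both libraries). In the interaction, *Prickle2* was 0.05 (offset with block), and *Ror1* was 0.03 (block), 0.02 (offset) and 0.06 (both).

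Leaving out a library gave both signs in these ranges. In Rspo2KO against wt they were -0.09 to 0.27 for *Vangl1*, -0.05 to 0.51 for *Prickle1*, -0.13 to 0.06 for *Ror1* and -0.12 to 0.13 for *Scrib*, and in DKO against wt -0.07 to 0.05 for *Scrib*. In DKO against Wnt9bKO they were -0.07 to 0.01 for *Vangl2*, -0.12 to 0.21 for *Celsr2*, -0.31 to 0.17 for *Prickle1*, -0.10 to 0.25 for *Prickle2* and -0.15 to 0.02 for *Ror1*. In DKO against Rspo2KO they were -0.01 to 0.41 for *Celsr1*, -0.46 to 0.11 for *Celsr2*, -0.23 to 0.26 for *Celsr3*, -0.16 to 0.01 for *Ror1* and -0.13 to 0.11 for *Scrib*. In the interaction they were -0.14 to 0.23 for *Vangl1*, -0.13 to 0.07 for *Ror1*, -0.04 to 0.21 for *Ror2* and -0.24 to 0.01 for *Scrib*.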
